A study of Chlorocebus aethiops with 12 samples.

Results

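Dual-specificity phosphatases that act on MAP kinases were followed across the 4 groups of this series through 9 transcript records, of 32379 record IDs on the array. The records are NM_004417 (DUSP1), NM_004418 (DUSP2), NM_001394 (DUSP4), NM_004419 (DUSP5), NM_001946 (DUSP6), NM_004420 (DUSP8), NM_007207 (DUSP10), NM_007026 (DUSP14) and NM_030640 (DUSP16). All probes of the array that carry these record IDs were taken, which gave 16 of 41000 distinct probes, and none of these was chosen by its signal. The genes themselves were chosen with earlier results of these data known. DUSP16 had 4 probes, DUSP8 had 3, DUSP2 and DUSP10 had 2 each, and the other 5 genes had 1. Of the 16 probes, 15 passed the filter on dim probes and were tested. The probe left out was A_23_P51856 of DUSP10, and the other DUSP10 probe was tested.

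MAP kinases (ERK, JNK and p38) are switched on when an upstream kinase phosphorylates a threonine and a tyrosine in their activation loop. Dual-specificity phosphatases remove both phosphates and so switch the kinase off, and many of their genes are themselves transcribed in response to MAP kinase signalling, which makes them feedback inhibitors. DUSP1, DUSP2, DUSP4 and DUSP5 are nuclear and rapidly inducible, DUSP6 is cytoplasmic and selective for ERK, and DUSP8, DUSP10 and DUSP16 act mainly on JNK and p38. DUSP14 is a small member without the N-terminal domain that docks the kinase in the others. Glucocorticoids are known to induce DUSP1 in many cell types, and its protein limits p38 and JNK activity in inflammation.

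The samples were COS-1 cells, a line of African green monkey kidney cells transformed with SV40. Every group was transiently transfected with V5-tagged mouse CCRP, a cochaperone, and with FLAG-tagged human glucocorticoid receptor. In Y30F the receptor had phenylalanine, and in Y30E glutamate, in place of a tyrosine. From 40 h after transfection the cells were given 100 nM dexamethasone, a synthetic glucocorticoid (Y30F-DEX and Y30E-DEX), or 0.1% DMSO, its vehicle (Y30F-DMSO and Y30E-DMSO), for 6 h. No group without transfected receptor is among the samples. Each group had 3 arrays, and since nothing in the labels tells whether they came from separate cultures, p-values measure the spread between arrays, which may be technical. In these bulk samples, fewer cells with a transcript and less of it per cell cannot be told apart, and the share of transfected cells was not measured. The array probes are human, so a mismatch to the monkey transcript can weaken the hybridisation, and no level was set against that of another probe. Only the 9 records are named here, since the files list record IDs without gene names. Markers of COS-1 and the kinases and targets of the pathway were therefore not analysed.

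Values are log2 signals relative to the 75th percentile of the same array, which lay at signals of 706 to 876. A value of 0 is therefore the level of that percentile, and a difference of 1 is 2-fold. On each array 60.5% to 67.0% of all spots exceeded the background clearly and none was saturated. The 12 arrays lay on 3 slides of 4. All Y30F-DMSO arrays and the first Y30F-DEX replicate shared slide 1. The other two Y30F-DEX replicates shared slide 2 with Y30E-DMSO replicates 1 and 2. Slide 3 took all Y30E-DEX arrays together with replicate 3 of Y30E-DMSO. An offset of slide 2 thus enters the Y30F effect and the Y30E effect with opposite signs and cancels in their average. In the difference of the effects it adds up. The average still carries part of any offset between slides 1 and 3. With slide as a block in the fit, the Y30F effect rests on the single Y30F-DEX array of slide 1 and the Y30E effect on the single Y30E-DMSO array of slide 3.

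Dexamethasone raised DUSP1 and lowered DUSP5, DUSP14 and DUSP4 when both receptors were averaged, which makes 4 of 15 probes called (limma, adjusted p under 0.05). Called here means that criterion throughout. Of all 25570 probes tested, 3.57% were called in that comparison, 2.51% higher and 1.06% lower, against 1 member higher and 3 lower. Since the genes were chosen with earlier results of these data known, this and the shares below are a description and not independent support. With the Y30F receptor 2 of 15 member probes were called, DUSP1 and DUSP5, where 1.65% of all probes were. With the Y30E receptor 2 of 15 were called, DUSP1 and DUSP14, where 1.98% of all probes were. The median change of the 15 probes was -0.13 in Y30F, where that of all probes was 0.02, and -0.10 in Y30E, where that of all probes was -0.01. Changes below 0 were found for 13 of 15 member probes in Y30F and 10 of 15 in Y30E, against 42.9% and 51.8% of all probes. For the average these were 11 of 15, with a median of -0.11, against 44.7% of all probes and a median of 0.01. The tested DUSP10 probe, below 0 in each of these counts, passed the filter through the DMSO groups alone. Leaving out single arrays moved the counts over all probes. In Y30F the 421 became 1488 without Y30F-DEX replicate 1 and 252 without Y30F-DEX replicate 3. In Y30E the 506 became 220 and 247 without Y30E-DMSO replicates 1 and 2, and 267, 287 and 278 without Y30E-DEX replicates 1, 2 and 3. Probes of 1 gene share a target and are not independent. Median centring of the arrays moved the median of all probes by -0.13 in Y30F and 0.05 in Y30E, and the members' medians by as much, to -0.26 and -0.04. Of the probes called in Y30F, 325 of 421 were higher at the 75th percentile scaling and 147 of 319 after median centring.

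**Figure D1:**
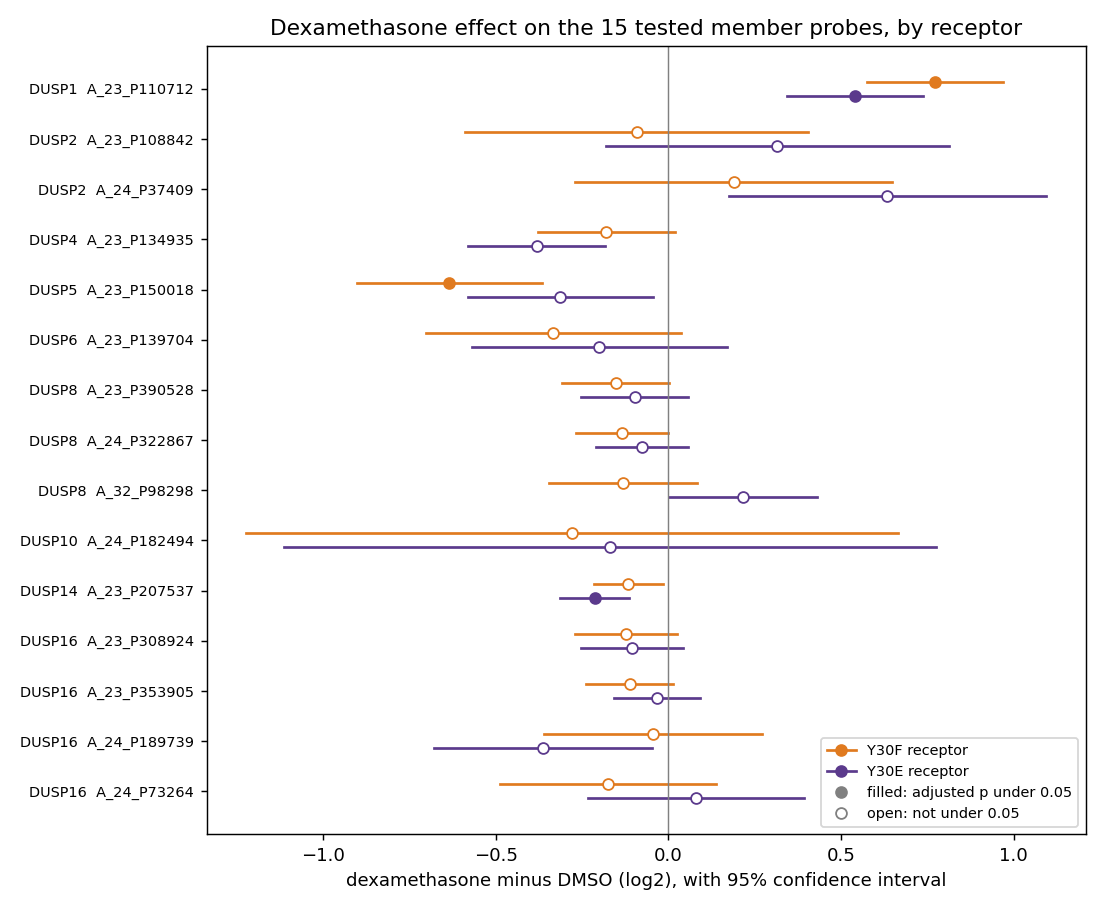
Change with dexamethasone (log2, x axis) for the 15 tested probes of the 9 phosphatase genes (y axis), with the Y30F receptor in orange and the Y30E receptor in purple. Points are the estimates, lines their 95% confidence intervals, and filled points have a limma adjusted p under 0.05. DUSP1 lies to the right of 0 with both receptors, DUSP4, DUSP5 and DUSP14 to the left, and the DUSP10 interval is the widest.

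DUSP1, the nuclear phosphatase of p38, JNK and ERK, had the largest rise of the members in Y30F and in the average, and the lowest adjusted p in both receptors and in the average. In Y30F-DMSO its level was 2.36, 2.63 and 2.55 on replicates 1 to 3, and in Y30F-DEX it was 3.22, 3.26 and 3.37. In Y30E-DMSO it was 2.62, 2.52 and 2.38, and in Y30E-DEX it was 3.08, 3.13 and 2.94. Every dexamethasone array was above every DMSO array, and the Y30F-DEX arrays were all above the Y30E-DEX arrays, with which they shared no slide. As mean signals before scaling, DUSP1 went from 4804 ± 490 to 7941 ± 837 in Y30F and from 4481 ± 467 to 6600 ± 722 in Y30E (SD, n = 3).

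The rise of DUSP1 was 0.77 ± 0.09 in Y30F (log2, SE, limma adjusted p = 0.00141), or 1.71-fold with a 95% interval from 1.49 to 1.96. In Y30E it was 0.54 ± 0.09 (limma adjusted p = 0.0121), or 1.45-fold with an interval from 1.27 to 1.67. The average rise was 0.66 ± 0.06 (limma adjusted p = 1.68e-04), 1.58-fold. Ordered by level, Y30F-DEX was followed by Y30E-DEX and then by the DMSO groups, whose means differed by 0.0072 with an SD of 0.14 and 0.12. Fitted with slide as a block, the rise was 0.71 ± 0.12 in Y30F and 0.67 ± 0.12 in Y30E, and both passed (limma adjusted p = 0.0464 and 0.0469). Within the arrays of slide 1 and of slide 3 alone the sizes were the same and neither passed (limma adjusted p = 0.299 and 0.157), and without slide 2 neither did (0.143 and 0.146), while the average did (0.0253). The Y30E call was also lost without Y30E-DMSO replicate 2 (0.0510) or Y30E-DEX replicate 1 (0.0569) or 2 (0.0559).

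**Figure D2:**
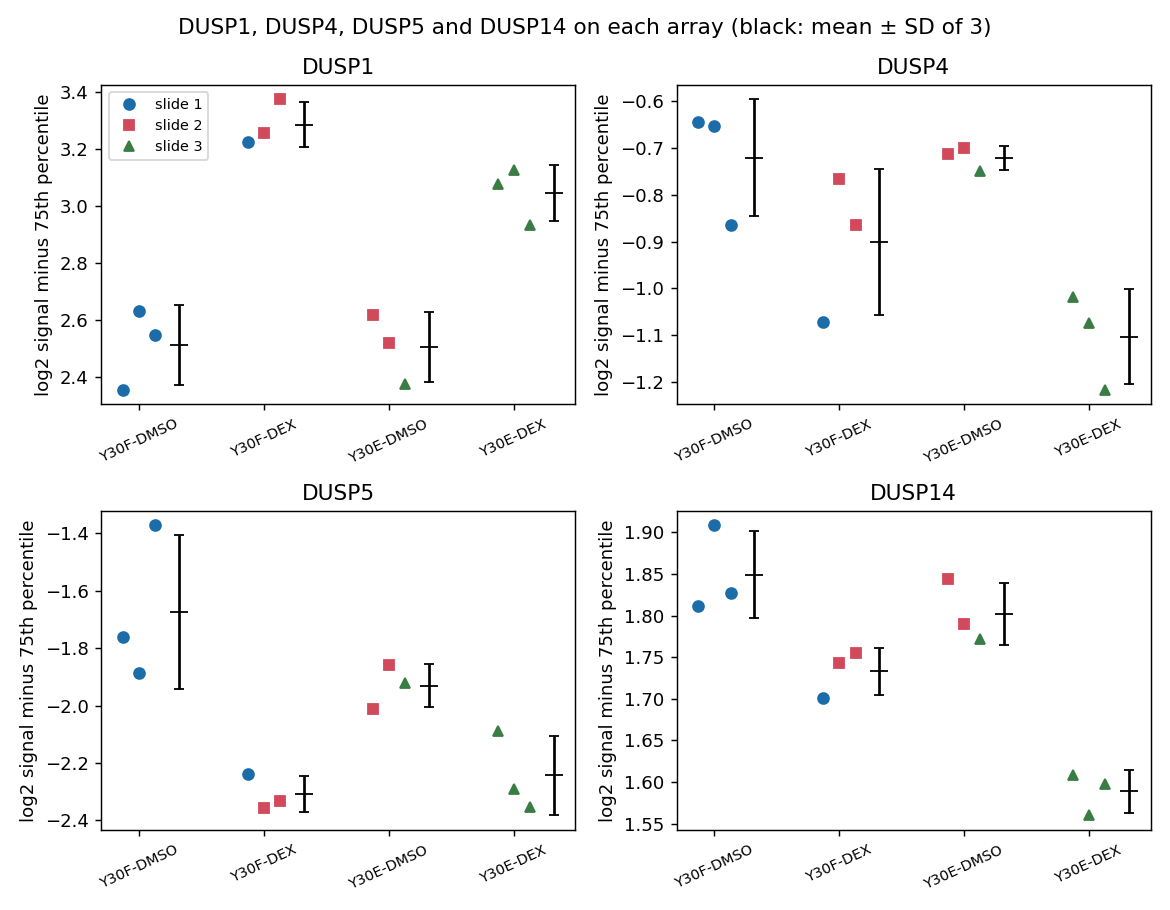
Level of DUSP1, DUSP4, DUSP5 and DUSP14 on each of the 12 arrays (log2 signal minus the array's 75th percentile, y axis) in the 4 groups (x axis). Colour and shape give the slide, and the black marks are the mean and SD of 3 arrays. For DUSP1, DUSP5 and DUSP14 the dexamethasone and DMSO arrays of each receptor do not overlap, and for DUSP4 they overlap with Y30F.

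DUSP5, a nuclear phosphatase that acts on ERK and not on JNK or p38, went the other way. Its level in Y30F-DMSO was -1.76, -1.89 and -1.37, and in Y30F-DEX it was -2.24, -2.36 and -2.33. In Y30E-DMSO it was -2.01, -1.86 and -1.92, and in Y30E-DEX it was -2.09, -2.29 and -2.35. With each receptor all 3 dexamethasone arrays lay below all 3 DMSO arrays, with Y30E closer together than Y30F, and Y30F-DMSO replicate 3 was the highest of all. Mean signals before scaling were 268 ± 62.6 and 165 ± 16.4 in Y30F, and 207 ± 15.8 and 169 ± 21.9 in Y30E (SD, n = 3).

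Averaged over receptors, the change of DUSP5 was -0.47 ± 0.09 (log2, SE, limma adjusted p = 0.0112), which means that its signal fell by 28.0%. In Y30F the change was -0.63 ± 0.12 (limma adjusted p = 0.0258), and in Y30E it was -0.31 ± 0.12 and was not called (limma adjusted p = 0.287). From high to low the order was Y30F-DMSO, Y30E-DMSO, Y30E-DEX and Y30F-DEX, where the DMSO groups overlapped, as did the dexamethasone groups. Leaving out Y30F-DMSO replicate 3 gave a Y30F change of -0.48, still called. The Y30F call was lost without Y30F-DMSO replicate 1 (limma adjusted p = 0.0613), Y30F-DEX replicate 2 (0.0997) or Y30F-DEX replicate 3 (0.108). The block for slide gave a Y30F change of -0.56 ± 0.18 and an average of -0.44 ± 0.13, and neither was called (limma adjusted p = 0.301 and 0.183).

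DUSP4, a nuclear phosphatase of ERK, JNK and p38 closely related to DUSP1, had a lower mean with dexamethasone with each receptor, and the change was called in the average of both. Its level was -0.64, -0.65 and -0.87 in Y30F-DMSO and -1.07, -0.77 and -0.86 in Y30F-DEX, which overlap. In Y30E-DMSO it was -0.71, -0.70 and -0.75, and in Y30E-DEX it was -1.02, -1.07 and -1.22, with all dexamethasone arrays lower. The average change was -0.28 ± 0.06 (log2, SE, limma adjusted p = 0.0370), so that the signal fell by 17.7%. By receptor it was -0.18 ± 0.09 in Y30F and -0.38 ± 0.09 in Y30E, neither called (limma adjusted p = 0.434 and 0.0663). The Y30E change of DUSP4 was called with normexp (limma adjusted p = 0.0472), with the trend and robust prior (0.0316) and without Y30F-DEX replicate 1 (0.0330). Within Y30F-DEX the slide 1 array was 0.26 below the mean of the slide 2 arrays. With slide as a block the changes were -0.35 ± 0.11 in both receptors, and the average of -0.35 ± 0.08 was not called (limma adjusted p = 0.0759). The average call was kept only without Y30F-DMSO replicate 3 or Y30F-DEX replicate 2, and was lost in each of the other 10 omissions of an array (limma adjusted p from 0.0514 to 0.0942).

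DUSP2, the nuclear phosphatase best known from activated immune cells, gave signals between 22.7 and 67.0 on its 2 probes, well above background on every array. Probe A_24_P37409 had levels of -4.69, -4.42 and -4.88 in Y30F-DMSO and -4.25, -4.38 and -4.79 in Y30F-DEX. In Y30E-DMSO they were -4.94, -4.96 and -4.22, and in Y30E-DEX -4.15, -4.11 and -3.97. The Y30E-DEX arrays were all above the Y30E-DMSO arrays, and the Y30F arrays overlapped. Its change was 0.63 ± 0.21 in Y30E and 0.19 ± 0.21 in Y30F, and neither was called (limma adjusted p = 0.205 and 0.758). The second probe, A_23_P108842, changed by 0.31 ± 0.22 in Y30E and -0.09 ± 0.22 in Y30F, again without a call (limma adjusted p = 0.579 and 0.911). Within Y30E-DMSO the slide 2 arrays of the 2 probes lay 0.73 and 0.61 below the slide 3 array, and within Y30F-DEX 0.33 and 0.36 below the slide 1 array. Their Y30E changes were 0.15 ± 0.19 and -0.09 ± 0.26 in the fit with slide as a block. The Y30E change of A_24_P37409 was called without Y30E-DMSO replicate 3, the slide 3 array, at 0.88 ± 0.16 (limma adjusted p = 0.0279), and so was its average, 0.53 ± 0.11 (limma adjusted p = 0.0315).

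DUSP6, the cytoplasmic phosphatase of ERK, had signals of 47.1 to 79.7. Its level was -3.43, -3.35 and -3.47 in Y30F-DMSO and -3.44, -3.91 and -3.91 in Y30F-DEX. In Y30E-DMSO it was -4.09, -3.50 and -3.83, and in Y30E-DEX -4.11, -4.11 and -3.79. The 3 Y30F-DMSO arrays and the Y30F-DEX array of the same slide were the 4 highest. The change with dexamethasone was -0.33 ± 0.17 in Y30F and -0.20 ± 0.17 in Y30E, and neither was called (limma adjusted p = 0.434 and 0.646). Within slide 1 the Y30F change was -0.02, the same as with slide as a block (± 0.21), while the slide 2 arrays of Y30F-DEX were 0.47 below the slide 1 array.

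DUSP8, which acts on JNK and p38, was measured by 3 probes that did not all move together. In Y30F their changes were -0.15 ± 0.07 (A_23_P390528), -0.13 ± 0.06 (A_24_P322867) and -0.13 ± 0.10 (A_32_P98298), with limma adjusted p of 0.391, 0.385 and 0.613. In Y30E the first 2 changed by -0.10 ± 0.07 and -0.08 ± 0.06, and the third by 0.22 ± 0.10 (limma adjusted p = 0.580, 0.626 and 0.356). Probe A_23_P390528 had levels of 0.68, 0.72 and 0.70 in Y30F-DMSO and 0.55, 0.52 and 0.58 in Y30F-DEX, which do not overlap. In Y30E-DMSO it had 0.73, 0.49 and 0.80 and in Y30E-DEX 0.60, 0.56 and 0.57, so that the DMSO arrays lay on both sides of the dexamethasone arrays. Its average change of -0.13 ± 0.05 was not called with all arrays (limma adjusted p = 0.271) and was -0.17 ± 0.03 and called without Y30E-DMSO replicate 2 (limma adjusted p = 0.0250). A_32_P98298 had -1.71, -1.75 and -1.65 in Y30F-DMSO, -1.73, -1.84 and -1.93 in Y30F-DEX, -1.66, -1.90 and -1.48 in Y30E-DMSO, and -1.45, -1.54 and -1.40 in Y30E-DEX. All 4 arrays of slide 3, in both Y30E groups, were the highest for that probe, and with slide as a block its changes were -0.03 ± 0.11 in Y30F and 0.02 ± 0.11 in Y30E.

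**Figure D3:**
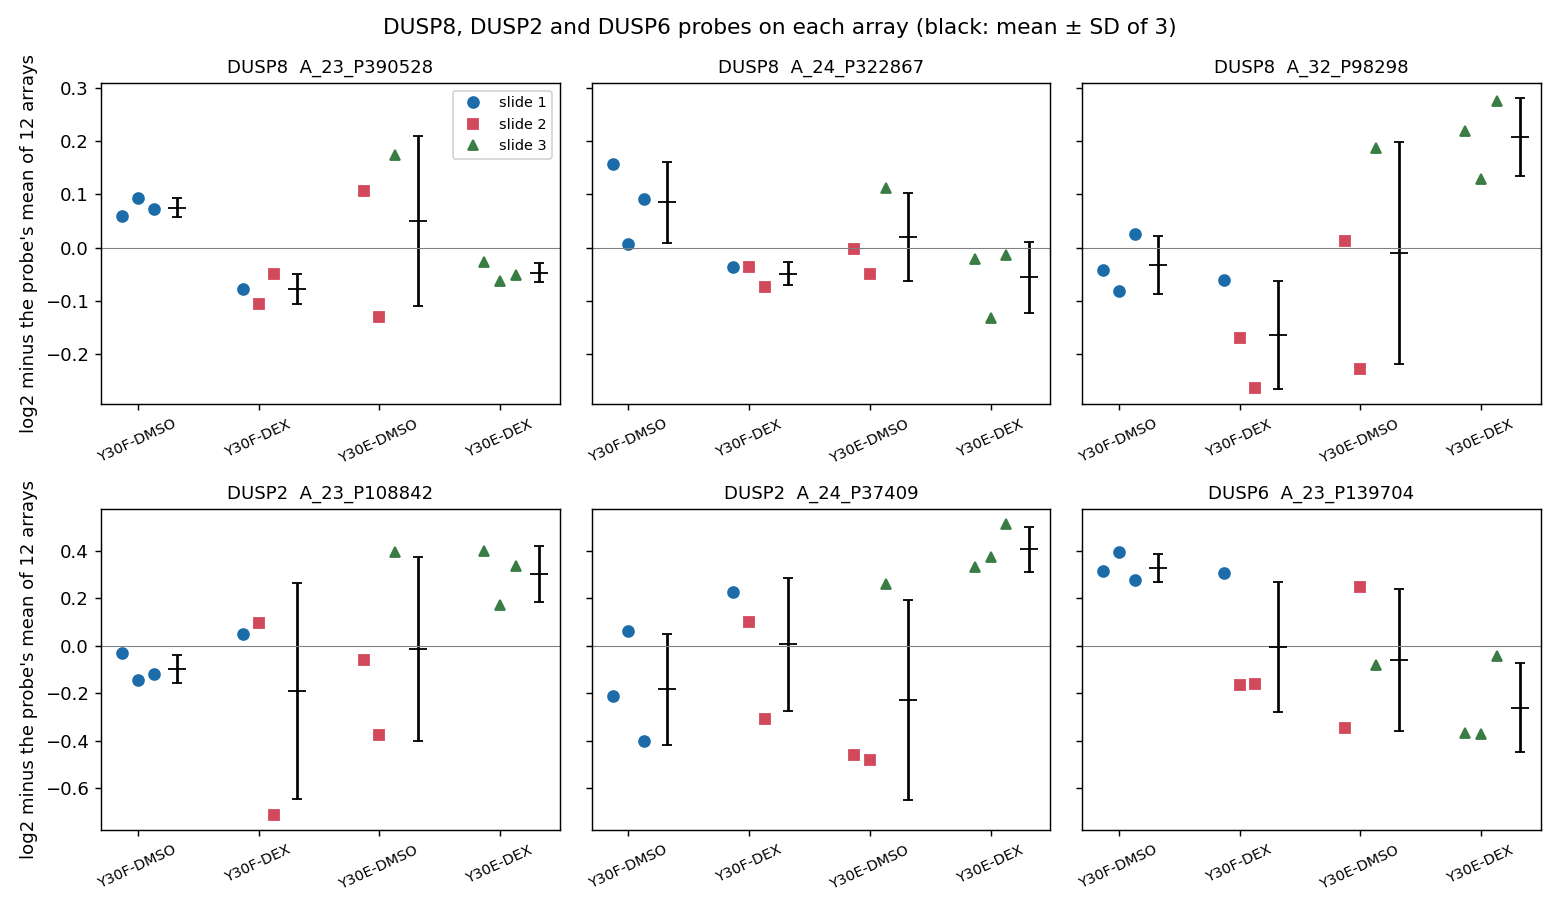
Level of the 3 DUSP8 probes (upper row), the 2 DUSP2 probes and the DUSP6 probe (lower row) on each array, as log2 minus the probe's own mean over 12 arrays (y axis, 1 scale per row), in the 4 groups (x axis). Colour and shape give the slide, and the black marks are the mean and SD of 3 arrays. For A_32_P98298 and both DUSP2 probes the slide 3 array of Y30E-DMSO lies nearer to the Y30E-DEX arrays, which share its slide, than the mean of its own group does.

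DUSP16, a further phosphatase of JNK and p38, was not called on any of its 4 probes. A_23_P308924 and A_23_P353905 had signals of 2442 to 3309 and 1351 to 1827. Their changes were -0.12 ± 0.07 and -0.11 ± 0.06 in Y30F and -0.10 ± 0.07 and -0.03 ± 0.06 in Y30E, none of them called (limma adjusted p from 0.442 to 0.853). The 95% intervals of the Y30F changes ran from -0.27 to 0.02 and from -0.24 to 0.01, and those of the Y30E changes from -0.25 to 0.04 and from -0.16 to 0.09. Probes A_24_P73264 and A_24_P189739 had signals of 44.5 to 72.0 and 24.7 to 37.7, the latter well above background on 11 of 12 arrays. They changed by -0.17 ± 0.14 and -0.05 ± 0.14 in Y30F and by 0.08 ± 0.14 and -0.36 ± 0.14 in Y30E, again without a call (limma adjusted p from 0.295 to 0.933). For A_23_P308924 and A_24_P189739 the Y30E-DEX arrays were all below the Y30E-DMSO arrays, and for the other two DUSP16 probes the groups overlapped.

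DUSP10, the third phosphatase of JNK and p38 in the set, was at the limit of detection. Probe A_24_P182494 was well above background on 10 of 12 arrays, with signals of 14.3 to 41.8. These were all 3 arrays of each DMSO group and 2 of 3 in each dexamethasone group. The probe thus passed the filter through the DMSO groups alone, so the sign of its change is not independent of the filter. Its change was -0.28 ± 0.42 in Y30F and -0.17 ± 0.42 in Y30E (limma adjusted p = 0.839 and 0.909), with 95% intervals from -1.22 to 0.66 and from -1.11 to 0.77. The intervals hold a fall of 2-fold, though not a rise of 2-fold, with each receptor. For the average the change was -0.22 ± 0.30, with an interval from -0.89 to 0.44. Probe A_23_P51856 was well above background on 3 of 12 arrays, none of them with dexamethasone, had signals of 8.33 to 29.8 and was not tested. With slide as a block the Y30F change of A_24_P182494 was -0.97 ± 0.54, and within Y30F-DEX its slide 2 arrays were 1.04 above the slide 1 array.

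DUSP14, the small member of the set, fell by little with a small spread. Its level was 1.81, 1.91 and 1.83 in Y30F-DMSO and 1.70, 1.74 and 1.75 in Y30F-DEX. In Y30E-DMSO it was 1.84, 1.79 and 1.77, and in Y30E-DEX it was 1.61, 1.56 and 1.60. Within each receptor all dexamethasone arrays were below all DMSO arrays. The Y30E-DEX arrays were below all others, of which only Y30E-DMSO replicate 3 shared their slide. From high to low the order was Y30F-DMSO, Y30E-DMSO, Y30F-DEX and Y30E-DEX, where only the DMSO groups overlapped.

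The average change of DUSP14 was -0.16 ± 0.03 (log2, SE, limma adjusted p = 0.0171), so that the signal fell by 10.8%. Between arrays of a group the SD was 0.03 to 0.05 (log2). The scanner software put the error of a single DUSP14 spot at 10.0% of its signal, as it did for DUSP1. In Y30E the change was -0.21 ± 0.05 (limma adjusted p = 0.0433), and in Y30F it was -0.12 ± 0.05 and was not called (limma adjusted p = 0.312). Median centring of the arrays gave -0.24 in Y30F, -0.16 in Y30E and -0.20 for the average, none of them called (limma adjusted p = 0.109, 0.363 and 0.0554). In the fit with slide as a block the average was -0.17 ± 0.05 and was not called (limma adjusted p = 0.200). The average call was lost without Y30E-DMSO replicate 1 (limma adjusted p = 0.0580). The Y30E call was kept only without Y30F-DMSO replicate 1 or 2, and was lost in the other 10 omissions of an array (limma adjusted p from 0.0535 to 0.202). It was also lost in 8 of the 14 alternatives that were not omissions of an array, normexp among them.

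**Figure D4:**
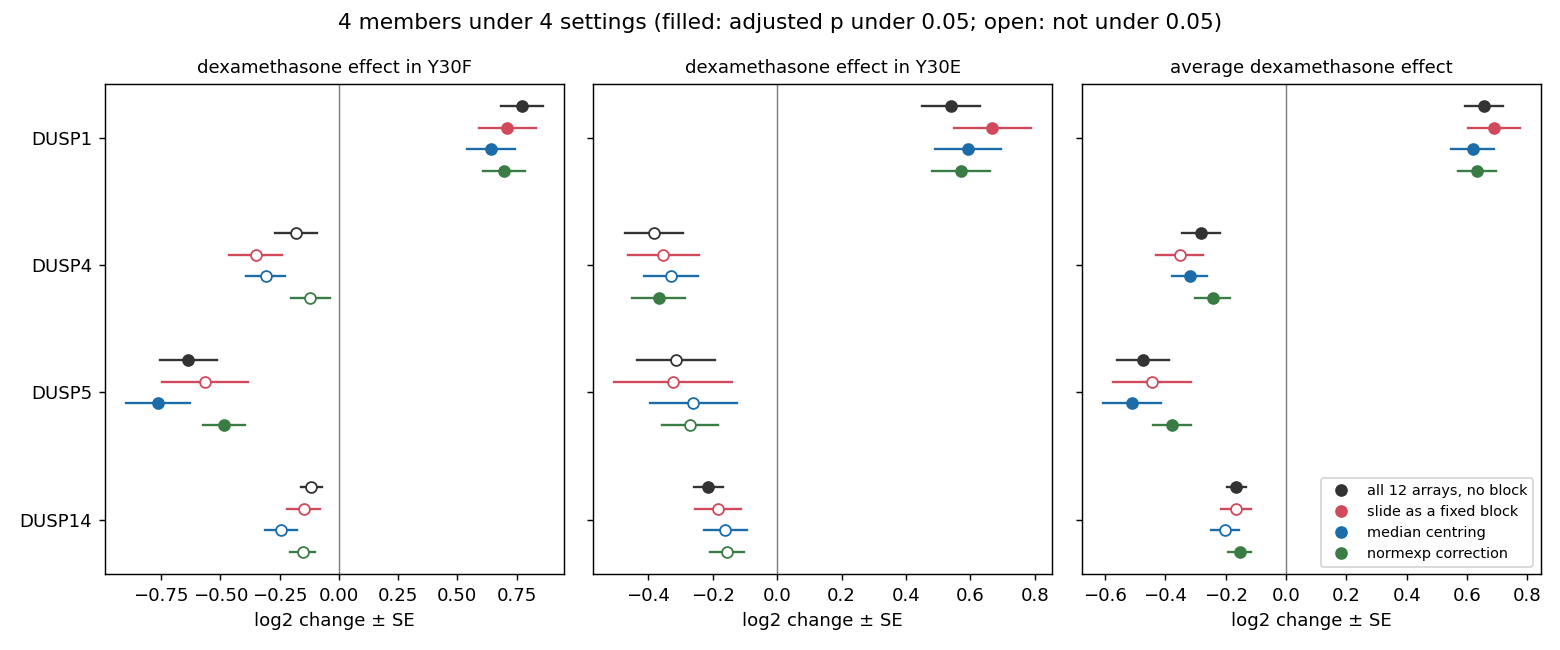
Change with dexamethasone (log2, x axis, with SE as lines) for DUSP1, DUSP4, DUSP5 and DUSP14 under 4 settings, with the Y30F effect, the Y30E effect and their average in separate panels, each with its own x scale. Filled points have a limma adjusted p under 0.05. All points keep their side of 0, and with slide as a block DUSP1 alone stays filled.

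Whether the response of these genes differed between the receptor mutants was tested by subtracting the Y30F effect from the Y30E effect. An offset of slide 2 adds up in this difference, so without a slide block it cannot be told apart from a difference between receptors. None of the 15 probes was called (limma, 0 of 25570 probes called in all, or 0%), and 1 of 15 had an unadjusted p under 0.05, where 10.9% of all probes did. The count over all probes moved with single arrays, being 1262 when Y30F-DEX replicate 1 was left out and 138 when it was Y30E-DMSO replicate 3, with no member among them. Without the first, treatment and slide coincide in Y30F, and without the second they coincide in Y30E. These counts therefore cannot be told apart from slide. The member with an unadjusted p under 0.05 was DUSP8 A_32_P98298, with a difference of 0.35 ± 0.14 (limma adjusted p = 0.396), and the slide 3 values above apply to it. The rise of DUSP1 was 0.23 smaller with Y30E, a difference of -0.23 ± 0.13 with a 95% interval from -0.51 to 0.05 (limma adjusted p = 0.557). For DUSP4 the difference was -0.20, with an interval from -0.48 to 0.08, and for DUSP5 it was 0.32, with an interval from -0.06 to 0.70. For DUSP14 it was -0.10, with an interval from -0.24 to 0.05, and under median centring it turned to 0.08. The DUSP1 difference was -0.04 ± 0.17 with slide as a block, a fit in which 23 of all probes were called. With the same block the DUSP4 difference was -0.0023. Over all alternatives the DUSP5 difference ran from 0.17 to 0.50. For 12 of the 15 probes both bounds of the 95% interval were under 2-fold, so for these the test leaves room for smaller differences. The intervals of both DUSP2 probes and of DUSP10 A_24_P182494 reached past 2-fold, with upper bounds of 1.11, 1.09 and 1.44.

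The receptors were also compared under each treatment. Under DMSO none of the 15 probes was called (limma, 0.00782% of all probes), and 2 had an unadjusted p under 0.05, where 13.1% of all probes did. Over all probes the 2 calls became 605 without Y30F-DEX replicate 1, 13 without Y30F-DMSO replicate 2, 33 without Y30E-DMSO replicate 3, 76 without slide 2 and 1447 with median centring, again with no member. The members with an unadjusted p under 0.05 were DUSP6, at -0.39 ± 0.17, and DUSP16 A_24_P189739, at 0.32 ± 0.14 (Y30E minus Y30F, limma adjusted p = 0.363 and 0.374). The DUSP6 difference turned to 0.09 ± 0.27 with slide as a block, and that of A_24_P189739 ran from 0.0021 to 0.48 over all alternatives. Under dexamethasone again no member probe was called (limma, 0% of all probes), and 5 had an unadjusted p under 0.05, where 13.5% of all probes did. Over all probes 48 were called when Y30E-DMSO replicate 3 was left out and 73 when it was Y30F-DEX replicate 1, none of them a member. Of the 5, those lower in Y30E-DEX were DUSP1, at -0.24 ± 0.09, DUSP4, at -0.20 ± 0.09, and DUSP14, at -0.14 ± 0.05 (limma adjusted p = 0.302, 0.363 and 0.256). Higher were DUSP8 A_32_P98298, at 0.37 ± 0.10, and DUSP16 A_24_P73264, at 0.32 ± 0.14 (limma adjusted p = 0.216 and 0.363). Over all alternatives the differences ran from -0.28 to -0.08 for DUSP1, -0.29 to -0.03 for DUSP4 and -0.16 to -0.11 for DUSP14. For A_32_P98298 they ran from 0.13 to 0.42, and for A_24_P73264 from 0.04 to 0.46. No slide held both groups of either comparison, so neither has a value within a slide. Both comparisons share their arrays with the dexamethasone effects above.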

How the data were processed

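The authors deposited 1 scanner file per array from Agilent Feature Extraction version 12 (per the submitters' processing notes), and the spot intensity used is its processed green signal, background-subtracted and detrended within the array (per the file headers). From the same deposited files came the spot flags and, for one alternative, the raw and background intensity. The deposited series table held the same values in 0 differing spots. Control and outlier spots were left out, and log2 signals were reduced by each array's 75th percentile. Tested were the 25570 of 41000 probes for which, in some group, every array had the flag for a signal well above background on a share of 0.5 or more of the probe's spots. All 12 arrays were fitted with 4 group means (limma 3.58.1, R 4.3.3, lmFit and eBayes, 8 residual degrees of freedom), with 6 contrasts and Benjamini-Hochberg adjustment over all probes at 0.05. The fit was tested on simulated data with independent noise between arrays, no slide offsets and changes added to Y30F-DEX alone. That test cannot tell how slides affect the calls. Groups came from the titles. A construct label that lists only 1 of the 2 plasmids per mutant was not followed, since the descriptions list both.

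All tested members are named. The members and lists were chosen with earlier results of these data known. Lists of pathway genes and markers, and a rule for genes of similar pattern, were not applied, since no table used here pairs record IDs with names, and for the same reason no sequence is shown. Alternatives were quantile normalization, median centring, normexp (offset 50, on the median signal), the series table, other filters, 1 probe per record, slide as a fixed or random block (statmod 1.5.0), single slides, the replicate block, the compared groups alone, a prior with trend and robust, leaving out each array and, chosen after the data were seen, leaving out slide 2.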

Additional observations from a re-analysis of the deposited data

How the results depend on the processing

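DUSP1, DUSP4, DUSP5 and DUSP14 kept their direction for the Y30F, Y30E and average effects in every alternative run, and DUSP1 kept its average call in all of them. Many of these fits could not move an effect. The series table, other filters, 1 probe per record, the replicate block and the prior with trend and robust left each size unchanged. For the effect with 1 receptor, so did the compared groups alone and omission of an array of the other receptor. Direction was fixed in advance there. For the 6 comparisons, the number of member probes called changed as follows. In Y30F, 2 became 1 with no filter on dim probes, slide as a fixed block, the replicate block or the compared groups alone, and 0 with slide 1 alone or without slide 2. In Y30E, 2 became 1 with median centring, no filter, slide as a fixed block, the replicate block or the compared groups alone, and 0 with slide 3 alone or without slide 2. With the trend and robust prior it was 3, and with normexp it stayed 2, with DUSP4 called in place of DUSP14. For the average, 4 became 3 with median centring, 2 with no filter or the replicate block, and 1 with slide as a fixed block or without slide 2. Leaving out 1 array gave 1 to 2 in Y30F, 0 to 2 in Y30E and 2 to 4 for the average. The number stayed 0 in each alternative for the other 3 comparisons. For the Y30F, Y30E and average effects the sizes are the same with the fixed slide block, with a single slide and without slide 2, since these rest on the same few arrays. Of all probes, 421 became 150 with the slide block in Y30F, 506 became 229 in Y30E and 913 became 445 for the average. In the same order they became 322, 365 and 722 with the replicate block, 319, 410 and 577 with median centring, and 291, 302 and 639 of 41000 with no filter. The compared groups alone gave 160 and 350. Leaving out 1 array gave 252 to 1488, 220 to 667 and 654 to 1005. Single slides and the fit without slide 2 leave 1 array in a group, so a lost call there is not particular to these genes.

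Signs that reversed belong to changes that were not called either way. With slide as a block, and equally with single slides or without slide 2, DUSP2 A_23_P108842 was 0.15 in Y30F and -0.094 in Y30E, DUSP16 A_24_P73264 was 0.11 and -0.10, and DUSP10 A_24_P182494 was 0.13 in Y30E. For the average, DUSP8 A_32_P98298 was -0.0039 and DUSP16 A_24_P73264 0.0026. The DUSP6 difference under DMSO was 0.094 with the block. DUSP2 A_24_P37409 was -0.054 in Y30F with quantile normalization. With median centring DUSP16 A_23_P353905 was 0.020 in Y30E and the DUSP14 difference between receptors 0.084. Omitting 1 array at a time gave, in Y30F, -0.23 to 0.17 for DUSP2 A_23_P108842, -0.63 to 0.068 for DUSP10 A_24_P182494 and -0.20 to 0.11 for DUSP16 A_24_P189739. In Y30E it gave -0.43 to 0.29 for DUSP10 A_24_P182494 and -0.039 to 0.17 for DUSP16 A_24_P73264. For the average it gave -0.012 to 0.092 for DUSP8 A_32_P98298, -0.40 to 0.0065 for DUSP10 A_24_P182494 and -0.12 to 0.0015 for DUSP16 A_24_P73264. The causes were not tested.

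Deviations of arrays with the same replicate number from their group means had 2 of 18 correlations above 0.1 (from -0.42 to 0.26). Slides also divide the groups, so these values cannot tell whether arrays of 1 replicate number share an origin. Under the replicate block DUSP1 kept its calls, and DUSP5 kept the average call alone (limma adjusted p = 0.0310).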

Other observations

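The error that the scanner software gives for a single spot was 10.0% to 10.1% of the signal for DUSP1, DUSP4 and DUSP14, and up to 21.2% for DUSP2, 33.9% for DUSP10 A_24_P182494 and 59.8% for DUSP10 A_23_P51856. The untested DUSP10 probe had levels with a mean of -5.25 ± 0.37 in Y30F-DMSO, -5.84 ± 0.56 in Y30F-DEX, -5.72 ± 1.04 in Y30E-DMSO and -6.11 ± 0.35 in Y30E-DEX (SD, n = 3), and was well above background on 2, 0, 1 and 0 of 3 arrays.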
